A study of Homo sapiens with 8 samples.

Results

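Plasminogen activation and its control were examined through 9 genes: the activators PLAU and PLAT, the urokinase receptor PLAUR, the membrane protease ST14, and the inhibitors SERPINE2, SERPINB5, SPINT1, SPINT2 and SLPI. They are 9 of the 58302 genes in the count table, and all 9 were among the 14133 genes with enough counts to be tested. The genes were chosen by name with their fold changes in this same comparison already known, so their values are given as a description and without p-values. RNA sequencing was done on the human colorectal cancer line DLD1, stably transduced by lentivirus with wild-type TRMT6/61A (OE-WT) or with the empty vector (CTRL). TRMT6 and TRMT61A form the methyltransferase that places m1A on tRNA, and the study used these cells to ask how that mark bears on senescence and on what senescent cells secrete. The labels list 2 replicates of each group, both run in 2 lanes. The table holds 1 column per replicate, so n is 2 libraries in every comparison. The paper's methods speak of 3 biological replicates, and neither source says whether the stable cells were pools or clones. The design text can be read as separate TRMT6 and TRMT61A lines, whereas the sample labels name both genes for the same cells. The RNA came from the cleared lysate of cells washed with cycloheximide, a translation blocker, in both groups.

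Plasminogen activators are serine proteases that cut plasminogen, a plasma protein, to release plasmin, which digests fibrin and matrix proteins. Urokinase acts at the cell surface, where its receptor holds it, and serpins stop it by forming a covalent complex with it. In gut epithelium the membrane protease matriptase and the Kunitz-type inhibitors HAI-1 and HAI-2 form another surface system, which also bears on epithelial barrier proteins. Urokinase and its receptor are also known among the factors that senescent cells make.

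The libraries held 10327498 to 12379671 counts on genes, and Pearson's r of log2 CPM across tested genes, which are not independent, was 0.990 within OE-WT and 0.992 within CTRL. CPM are read counts scaled to a common library size with TMM factors. TRMT6 was at 211 and 181 CPM in OE-WT against 52.6 and 55.4 in CTRL, and its log2 fold change by edgeR's quasi-likelihood fit was 1.86, with a standard error of 0.08 and an adjusted p of 8.5e-13. TRMT61A was at 138 and 130 CPM against 58.9 and 56.8, or 1.21 on the log2 scale, with a standard error of 0.07 and an adjusted p of 1.9e-10. Of 12 colon epithelium markers 11 were tested. The keratins KRT8 and KRT18 were abundant, KRT20 was lower in OE-WT (log2 fold change -1.52), and 4 markers in all were called lower and 3 higher. Summed levels of the marker lists ranged from 2.27 to 3.22 CPM for 8 fibroblast genes, from 1.87 to 2.95 for 7 leukocyte genes and from 0.59 to 2.33 for 4 endothelial genes. The part of these marker differences in the results below was not tested.

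All 9 genes were lower in OE-WT than in CTRL cells, and for all 9 both OE-WT libraries lay below both CTRL libraries. At an adjusted p below 0.05 over all tested genes, all 9 were called lower. Of all tested genes, 11.6% were called lower, 9.44% were called higher, and 30.2% had both OE-WT libraries below both CTRL libraries. The study's own thresholds, an unadjusted p below 0.05 with an absolute log2 fold change above 1, were met by SERPINB5 alone among the 9, and by 2.25% of all tested genes in the lower direction. Because the genes were selected on this comparison, nothing is read from these counts. The log2 fold changes of the 9 ran from -1.08 for SERPINB5 to -0.30 for ST14, with a median of -0.68, beside a median of 0.01 over all tested genes. In bulk RNA, fewer cells that express a gene and less of its RNA per cell cannot be told apart.

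**Figure D1:**
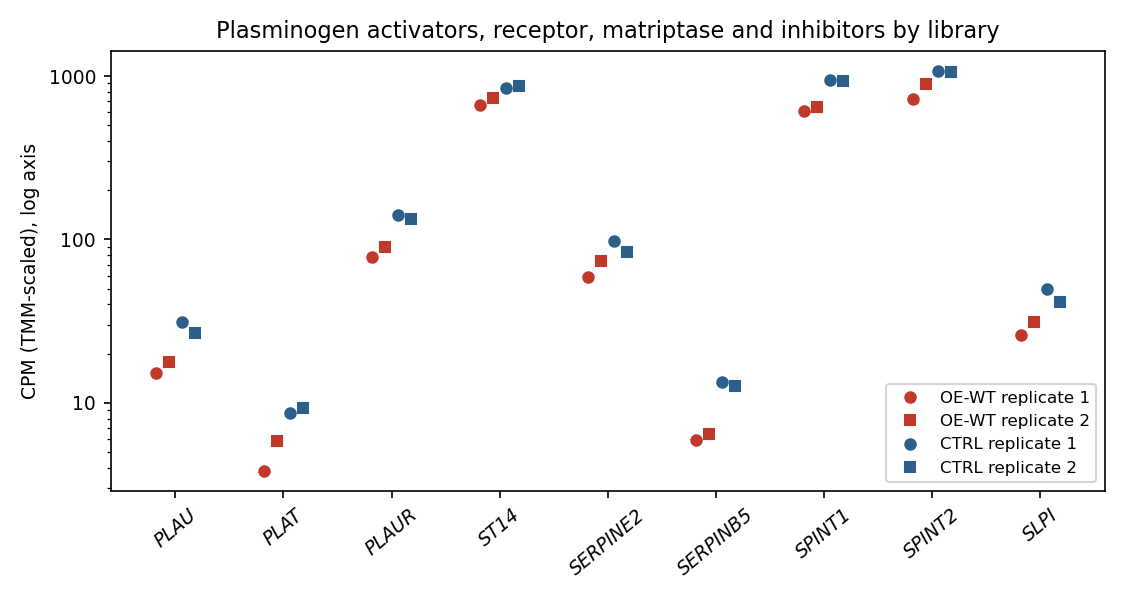
Level of each of the 9 genes in every library, as CPM on a log axis, with OE-WT libraries in red and CTRL libraries in blue and circles and squares for replicates 1 and 2. For each gene both red points sit below both blue points, from PLAT at 3.83 to 9.34 CPM up to SPINT2 at 726 to 1077 CPM.

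The plasminogen activators were expressed at a low level and were 1.75-fold to 1.86-fold lower in OE-WT cells. PLAU (ENSG00000122861, GRCh38 chromosome 10, 73909177 to 73917496, plus strand) encodes urokinase. It had 15.2 and 17.7 CPM in the OE-WT libraries and 31.1 and 26.6 CPM in the CTRL libraries. The groups did not overlap, and the log2 fold change was -0.81 (standard error 0.12). PLAT (ENSG00000104368, chromosome 8, 42174718 to 42207709, minus strand) encodes tissue-type plasminogen activator, best known from the vessel wall. Its level was 3.83 and 5.80 CPM in OE-WT and 8.63 and 9.34 CPM in CTRL, which rests on 38, 59, 111 and 115 counts. The log2 fold change of PLAT was -0.89 (standard error 0.20), and it moved between -1.24 and -0.62 as each library was left out in turn. The OE-WT libraries of PLAT stood further apart than its CTRL libraries. Summed over both activators, the level was 19.0 and 23.5 CPM in OE-WT and 39.7 and 36.0 CPM in CTRL, so that the OE-WT mean was 0.562 times the CTRL mean.

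PLAUR (ENSG00000011422, chromosome 19, 43646095 to 43670547, minus strand) encodes the urokinase receptor, which is tied to the outer membrane by a lipid anchor. The OE-WT libraries had 78.5 and 89.3 CPM, and the CTRL libraries had 141 and 132 CPM. The spread within each group was small beside the gap between them, and the log2 fold change was -0.71 (standard error 0.07). By the fitted folds, PLAUR was at 0.613 times and its ligand PLAU at 0.570 times the CTRL level. The ratio of PLAUR to PLAU, taken per kilobase of annotated exon, was 3.41 and 3.34 in OE-WT and 3.01 and 3.29 in CTRL. CTRL replicate 2 lay close to the OE-WT libraries in this ratio.

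ST14 (ENSG00000149418, chromosome 11, 130159782 to 130210362, plus strand) encodes matriptase, a membrane-bound serine protease of epithelia. It was abundant and showed the smallest difference of the 9. Its level was 667 and 730 CPM in OE-WT and 841 and 874 CPM in CTRL. The groups did not overlap, and the log2 fold change was -0.30 (standard error 0.07). This call depended on the processing. With a trend on transcript GC content removed from each library the log2 fold change was -0.14, and without OE-WT replicate 1 it was -0.23, and in both cases ST14 was no longer called. ST14 has the highest transcript GC content of the 9, at 62.1%, and SERPINB5 has the lowest, at 40.1%.

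The 5 inhibitors fell into abundant Kunitz-type inhibitors, moderately expressed SERPINE2 and SLPI, and scarce SERPINB5. SERPINE2 (ENSG00000135919, chromosome 2, 223975045 to 224039318, minus strand) encodes protease nexin 1, a serpin that inhibits thrombin and urokinase. It had 58.7 and 73.4 CPM in OE-WT and 97.6 and 84.1 CPM in CTRL. The log2 fold change was -0.46 (standard error 0.09). It shrank to -0.30 without OE-WT replicate 1, the library with the lowest value. SERPINB5 (ENSG00000206075, chromosome 18, 63476958 to 63505085, plus strand) encodes maspin, a member of the serpin family that does not act as a protease inhibitor in the usual way. The counts were 59 and 65 in OE-WT and 172 and 156 in CTRL, or 5.94 and 6.39 CPM against 13.4 and 12.7 CPM. Replicates lay close together, and the log2 fold change of -1.08 (standard error 0.16) was the largest of the 9. It stayed between -1.14 and -1.02 with each library left out in turn.

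SPINT1 (ENSG00000166145, chromosome 15, 40844018 to 40858207, plus strand) encodes HAI-1, the membrane-anchored Kunitz inhibitor of matriptase. It had 612 and 649 CPM in OE-WT and 945 and 939 CPM in CTRL, a log2 fold change of -0.58 (standard error 0.07). The CTRL libraries were almost level. SPINT2 (ENSG00000167642, chromosome 19, 38244035 to 38292615, plus strand) encodes the related inhibitor HAI-2. Its level was 726 and 888 CPM in OE-WT and 1077 and 1051 CPM in CTRL. The log2 fold change was -0.40 (standard error 0.08), and without OE-WT replicate 1 it was -0.26. The OE-WT libraries differed more from each other than the CTRL libraries did. SLPI (ENSG00000124107, chromosome 20, 45252239 to 45254564, minus strand) encodes a secreted inhibitor of neutrophil elastase and other leukocyte proteases. It had 25.8 and 31.1 CPM in OE-WT and 49.5 and 41.6 CPM in CTRL, a log2 fold change of -0.68 (standard error 0.10). Over the 5 inhibitors the summed level was 1429 and 1648 CPM in OE-WT and 2183 and 2128 CPM in CTRL. The OE-WT mean of this sum was 0.714 times the CTRL mean. SPINT1 and SPINT2 made up most of the sum in every library, so this ratio says little about SERPINE2, SLPI and SERPINB5.

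Replicates of a group were also compared for the 9 genes. OE-WT replicate 1 lay below OE-WT replicate 2 for all 9 genes, beside 49.6% of all tested genes. The related genes described below had this order in 39 of 51 cases, and the membrane and kallikrein-like proteases among them in 12 of 12. CTRL replicate 1 lay above CTRL replicate 2 for 7 of the 9, and for 50.3% of all tested genes. PLAT and ST14 were the exceptions. How the choice of genes bears on this order was not tested. Without OE-WT replicate 1 the median log2 fold change of the 9 was -0.55, and without OE-WT replicate 2 it was -0.81.

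The 9 genes lie on 8 chromosomes, PLAUR and SPINT2 being on the same one. What most of them share is a signal for entry into the secretory pathway. A hydrophobic segment near the amino end, counted where the mean Kyte-Doolittle hydropathy reached 2.0 over 11 residues within the first 40, was present in 7 of the 9 proteins. ST14, a type II membrane protein whose anchor lies further in, had a highest value of 0.364, and SERPINB5, which lacks a cleaved signal peptide, had 1.74. Among the 1995 tested genes with such a segment, 33.4% were called lower and 5.16% higher, with a median log2 fold change of -0.21. Of the 9631 protein-coding genes without it, 8.86% were called lower and 11.4% higher, with a median of 0.04. Among the genes with the segment, OE-WT replicate 1 lay below OE-WT replicate 2 for 66.0% and CTRL replicate 1 above CTRL replicate 2 for 57.9%. Set against the genes with a segment, the 7 that have it stood between the 8.47 percentile of log2 fold change (PLAT) and the 30.4 percentile (SPINT2). SERPINB5 and ST14, without the segment by this rule, stood at the 1.78 and 19.3 percentiles of all tested genes.

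**Figure D2:**
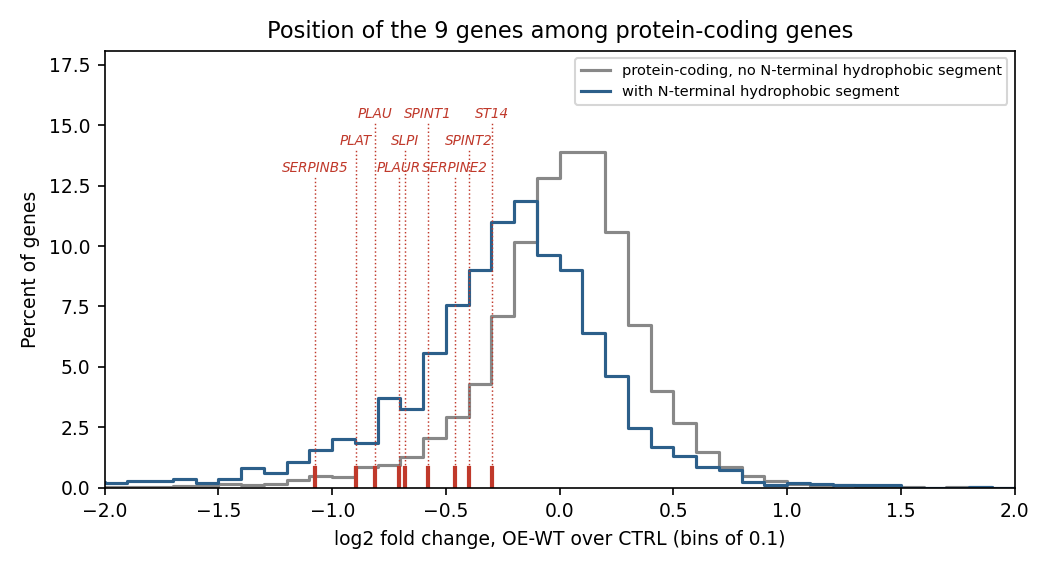
Percent of protein-coding genes in bins of log2 fold change, OE-WT over CTRL, for genes with an N-terminal hydrophobic segment (blue, 1995 genes) and without one (grey, 9631 genes), with the 9 genes marked in red and the axis cut at -2 and 2. The blue curve is centred at -0.21 and the grey one at 0.04, and the 9 marks run from -1.08 to -0.30.

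Promoter sequences were examined as a description, since the genes were chosen with their fold changes known. RefSeq start sites on GRCh38.p14 were given for 5 of the 9 genes, and 4 of them had a start site at the one used by the Ensembl canonical transcript. The 250 bases before that site were searched on both strands for the AP-1 motif TGANTCA, the GC box GGGCGG, the TATA box TATAAA and the NF-kB consensus. The stretches shown end where an annotated exon of the same gene begins. Capitals mark GC boxes and, in SERPINB5, the letters TGAATCA of an AP-1 match as well.
PLAU, chr10:73910882-73911103, plus strand: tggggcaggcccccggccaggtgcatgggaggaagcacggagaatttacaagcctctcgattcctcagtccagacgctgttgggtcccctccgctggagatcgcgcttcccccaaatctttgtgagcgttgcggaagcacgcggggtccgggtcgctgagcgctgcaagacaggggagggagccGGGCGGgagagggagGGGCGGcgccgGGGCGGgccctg
SERPINB5, chr18:63476708-63476957, plus strand: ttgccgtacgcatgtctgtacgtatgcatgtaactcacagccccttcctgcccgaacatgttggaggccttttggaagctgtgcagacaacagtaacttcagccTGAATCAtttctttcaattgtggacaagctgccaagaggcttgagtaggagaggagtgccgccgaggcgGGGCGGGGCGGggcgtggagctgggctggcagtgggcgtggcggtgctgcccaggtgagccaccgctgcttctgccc
SPINT1, chr15:40843798-40844017, plus strand: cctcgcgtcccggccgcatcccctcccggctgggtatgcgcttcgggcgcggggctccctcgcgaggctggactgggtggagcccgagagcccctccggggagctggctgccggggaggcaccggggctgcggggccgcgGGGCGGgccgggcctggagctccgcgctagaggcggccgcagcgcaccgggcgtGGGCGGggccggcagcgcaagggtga

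Within the whole 250 bases, GC boxes occurred 3 times in PLAU, 3 times in SPINT1, 2 times in SERPINB5, where the matches overlap by 1 base, and 0 times in PLAUR. Of all 35116 windows of this length in the table, 42.6% held a GC box. AP-1 matches stood 146 bases before the SERPINB5 start and 186 bases before the PLAUR start, the latter with the letters TGAGTCA, and 6.57% of all windows held such a match. PLAU and SPINT1 had 0 AP-1 matches in this window. TATA boxes and the NF-kB consensus were found in 0 of these 4 windows, beside 10.7% and 9.96% of all windows. Windows at other start sites of these genes are not shown. Of them, 1 of SPINT1 held the NF-kB consensus 99 bases before its start, and both of SERPINE2 held GC boxes. The PLAUR window lies wholly in an exon of another PLAUR transcript and is not shown. GC content of the 4 windows at the canonical start ran from 60.0% for SERPINB5 to 80.4% for SPINT1. No motif of this search occurred in all 4 windows at the canonical start, and a match of letters does not show that a factor binds.

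Levels between genes were compared per kilobase of the union of annotated exons. In CTRL cells SPINT1 led with 266 ± 1.32 CPM per kb (SD, n = 2 libraries). SPINT2 followed with 209 ± 3.62 and ST14 with 208 ± 5.70, a pair within its spread on this length only. SLPI had 76.4 ± 9.44, PLAUR 30.7 ± 1.41, SERPINE2 10.1 ± 1.07 and PLAU 9.79 ± 1.07 CPM per kb. SERPINE2 and PLAU were likewise within their spread on this length only. SERPINB5, at 3.48 ± 0.13, and PLAT, at 1.16 ± 0.06, were the lowest. Matriptase and its Kunitz inhibitors thus formed the most abundant part of this group of transcripts. The order turned with the length used: per kilobase of the canonical transcript, which was chosen as an alternative after the data were seen, SPINT2 stood at 630, SPINT1 at 316 and ST14 at 260 CPM per kb in CTRL. On that length PLAUR had 100 and SLPI 76.4, and SERPINE2, at 40.8 ± 4.30, and PLAU, at 12.3 ± 1.35, differed beyond their spread.

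Ratios within a library do not depend on the scaling of that library. The summed level of SPINT1 and SPINT2 over that of ST14, per kilobase of exon, was 1.95 and 2.02 in OE-WT and 2.34 and 2.22 in CTRL. The inhibitors were thus lower relative to matriptase in both OE-WT libraries. SPINT1 alone showed the same order, with a ratio to ST14 of 1.07 and 1.03 against 1.31 and 1.25. The SPINT2 to ST14 ratio was 0.881 and 0.985 against 1.04 and 0.973, and there the groups overlapped. The groups kept apart, or overlapped, in the same way with the canonical transcript length. With 2 libraries a group, the smallest two-sided p of an exact permutation test is 0.333, and the genes were picked on this comparison, so the ratios carry no test.

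**Figure D3:**
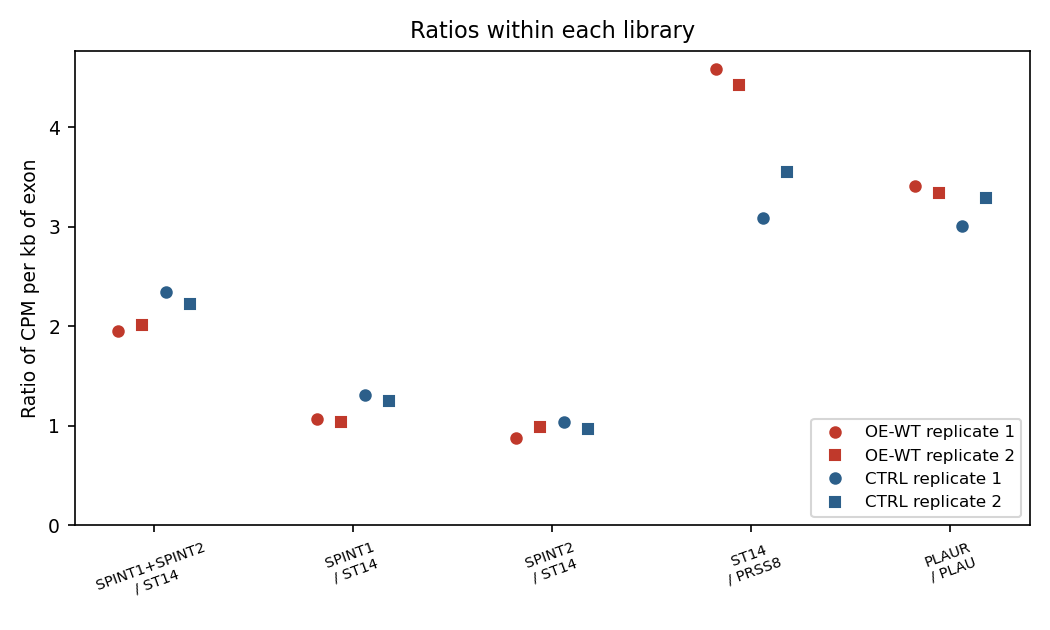
Ratios between genes of the system within each library, from CPM per kb of annotated exon, with OE-WT in red and CTRL in blue and circles and squares for replicates 1 and 2. SPINT1 over ST14 is lower in both OE-WT libraries (1.07 and 1.03 against 1.31 and 1.25), and ST14 over PRSS8 is higher in both.

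Genes related to these 9 by family or role were taken from 5 lists. The lists held 110 genes, of which 51 were tested. Of these, 24 were called lower, 6 higher and 21 neither way, with a median log2 fold change of -0.33. By this edgeR fit 47.1% of the 51 were thus lower and 11.8% higher, beside 11.6% and 9.44% of all tested genes. The part of the secretory class in these shares was not tested. The higher calls depended on the processing: DESeq2 gave 19 lower and 1 higher, and library size only 26 and 2. PLG, which encodes the substrate plasminogen, had 0 counts in all 4 libraries. A count of 0 allows up to 3 counts, or 0.233 to 0.302 CPM, for counting error only. HGF, the growth factor whose activating proteases HAI-1 inhibits, and TFPI2, a Kunitz inhibitor of plasmin, were also at 0. SERPINB2, the inhibitor PAI-2, had 1 count in all, in CTRL replicate 1.

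Among 21 fibrinolysis partners 14 were tested, 7 were called lower and 3 higher. LRP1, the receptor that clears protease and serpin complexes from the surface, was at 15.9 and 16.7 CPM against 34.4 and 32.7. By edgeR's quasi-likelihood test the difference was -1.04 ± 0.11 on the log2 scale (± standard error, adjusted p = 4.87e-07). The integrins ITGA3 and ITGAV were lower by less, with log2 fold changes of -0.55 and -0.31, as was LRPAP1, the chaperone of LRP1, at -0.28. The call for ITGAV was lost with DESeq2 and without OE-WT replicate 2. ENO1, a glycolytic enzyme that also binds plasminogen, was higher by 0.22 (adjusted p = 0.0213), a call that was lost with library size only, with the replicate block and whichever library was left out. PLGRKT, a plasminogen receptor, did not pass (log2 fold change -0.35, adjusted p = 0.0575 by edgeR's quasi-likelihood test). It was called with library size only, with the likelihood ratio test and with the GC trend removed.

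Of 28 membrane and kallikrein-like serine proteases 12 were tested, 6 were called lower and 0 higher by edgeR. At an unadjusted p below 0.05, 0 were higher, and with DESeq2 0 as well. PRSS8 encodes prostasin, a partner of matriptase, and had 105 and 119 CPM in OE-WT and 197 and 178 CPM in CTRL. By edgeR's quasi-likelihood test the difference was -0.74 ± 0.07 on the log2 scale (± standard error, adjusted p = 4.16e-07). The ratio of ST14 to PRSS8 was 4.58 and 4.43 in OE-WT and 3.09 and 3.55 in CTRL. KLK7 at -1.41 and TMPRSS3 at -1.37 had the largest log2 fold changes of this list, and PRSS22, KLK10 and TMPRSS13 lay between -0.65 and -0.52. TMPRSS2 and TMPRSS4 did not pass, with adjusted p of 0.324 and 0.729. HPN, which encodes hepsin, had 1 to 3 counts per library.

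Substrates and receptors of these proteases numbered 16, of which 11 were tested, 7 called lower and 0 higher by edgeR. Again 0 were higher at an unadjusted p below 0.05, and 0 with DESeq2. F2RL1 encodes the protease-activated receptor PAR2 and had 281 and 309 CPM in OE-WT and 449 and 420 CPM in CTRL. By edgeR's quasi-likelihood test the difference was -0.56 ± 0.07 on the log2 scale (± standard error, adjusted p = 5.23e-06). The thrombin receptor F2R had -0.76 (adjusted p = 0.000124). The sodium channel subunit SCNN1A and the tight junction protein CLDN7, which membrane serine proteases can act on, had -0.56 and -0.44. PROCR, the protein C receptor, had -0.42, and F3, which encodes tissue factor, had -0.40, a call that was lost without CTRL replicate 2. MST1R, receptor of macrophage-stimulating protein, had -0.33 (adjusted p = 0.000914), which was -0.20 with the GC trend removed, and MET, the HGF receptor, -0.03 (adjusted p = 0.866).

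Other inhibitor families were examined in the same way. Of 22 further serpins 7 were tested, with 2 called lower and 2 higher. SERPINA1, alpha-1 antitrypsin, had a log2 fold change of -0.54 (adjusted p = 0.0211), and this call was lost with DESeq2, without OE-WT replicate 1 and without CTRL replicate 1. SERPINB8 and SERPINB1, serpins that remain inside the cell, had log2 fold changes of 0.52 and 0.29 (adjusted p = 0.00938 and 0.00739 by edgeR's quasi-likelihood test). Both of these calls were lost with DESeq2. That of SERPINB8 was also lost without CTRL replicate 1, and that of SERPINB1 with library size only, with the GC trend removed and without CTRL replicate 2. They are of the same clade as SERPINB5, which was lower. Of 23 further Kunitz, WAP and Kazal inhibitors 7 were tested, with 2 lower and 1 higher. With DESeq2, 0 genes of either list were called higher, although SPINK1, described below, had no adjusted p there. APP and APLP2, membrane proteins that can carry a Kunitz domain, had log2 fold changes of -0.58 and -0.56 (adjusted p = 1.85e-06 and 2.83e-06). PI3, which encodes elafin, a WAP inhibitor like SLPI, did not pass (-0.45, adjusted p = 0.253). WFDC2, of the same list, had 1 count in all, in CTRL replicate 1. SPINK1 had 17, 17, 10 and 9 counts, and its call was lost whichever library was left out.

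**Figure D4:**
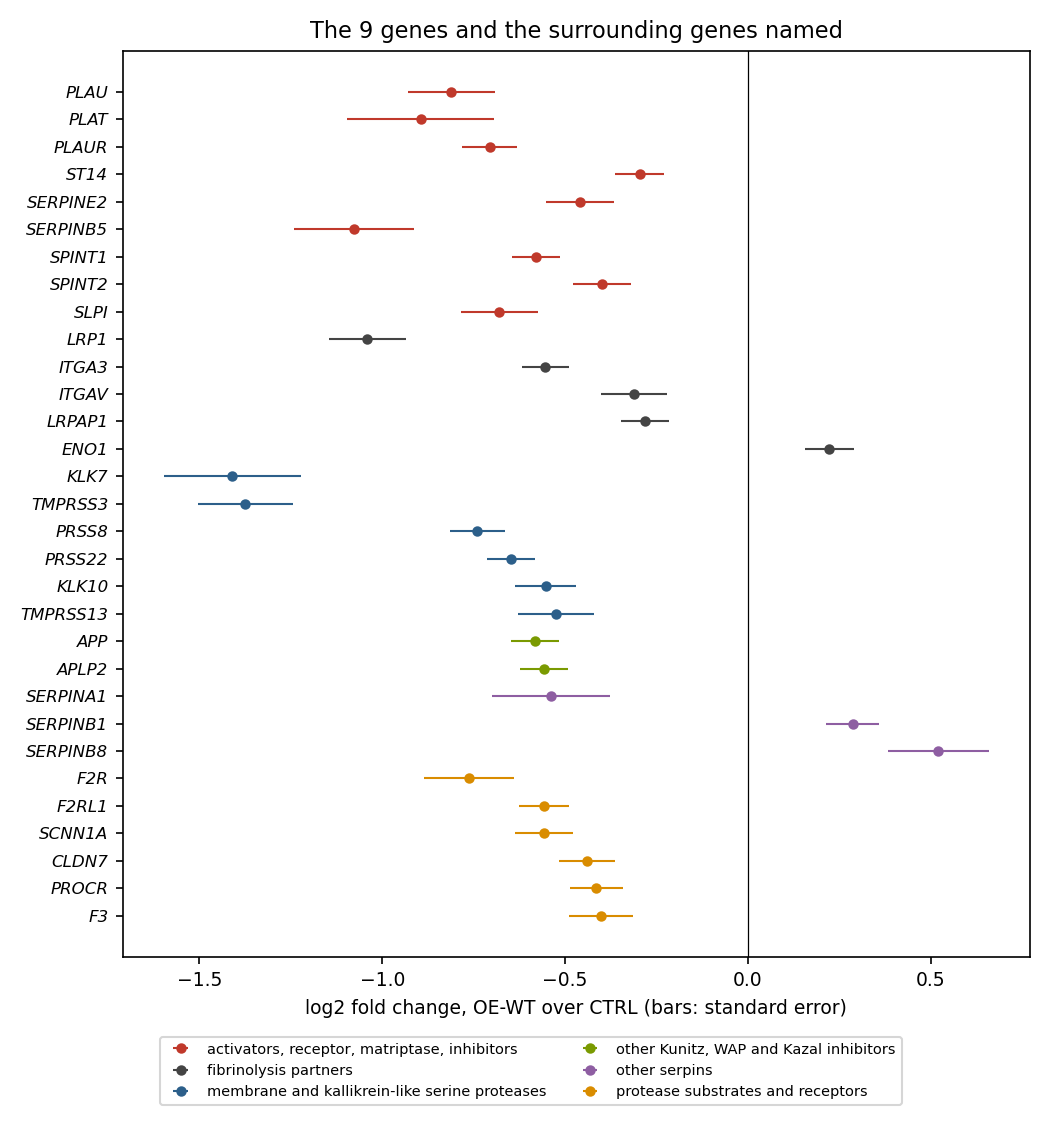
Log2 fold change, OE-WT over CTRL, with standard errors as bars, for the 9 genes (red, top) and for surrounding genes that the naming rule picked from 5 lists of related genes. The 9 lie between -1.08 and -0.30, and of the surrounding genes drawn only ENO1, SERPINB1 and SERPINB8 are above 0. Only called genes are drawn, at most 6 per list and with a mean of at least 50 counts. Genes that were not called, among them some near or above 0, are absent.

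Overlapping genes limit the counts at 3 of the 9 loci. C10orf55, on the strand opposite to PLAU, shares 915 bases of exon with it and had 47, 64, 117 and 94 counts in the order OE-WT 1, OE-WT 2, CTRL 1 and CTRL 2, against 151, 180, 400 and 328 for PLAU. SPINT1-AS1 shares 100 bases with SPINT1 and had 346, 411, 587 and 557 counts, against 6077 to 12160 for SPINT1. A gene without a symbol on the SPINT2 strand shares 242 bases with it and had 0 counts. Another gene without a symbol, on the strand opposite to SPINT2, shares 622 bases with it and was not among the genes counted. The labels describe a strand-specific kit, but the strand setting of the counting is not given in the sources used here, so reads of PLAU and C10orf55 may not have been told apart.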

How the data were processed

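The authors aligned the reads to GRCh38 with HISAT2 (the paper also names Cutadapt for trimming), counted reads per gene and deposited these raw counts, without normalization. The paper names HTSeq for counting, and the submitters' processing notes list HISAT2 2.2.1, featureCounts 2.0.0 and DESeq2 1.34.0; the paper describes removal of ribosomal RNA and the labels poly(A) selection. The paper names an Ensembl release for its ribosome profiling reads; for these counts the release is not given in the sources used here. Values were whole numbers, in 4 columns with 0 other per-sample columns. Lanes were already merged. Nothing in the labels ties replicates to separate cultures beyond the design text, so p-values measure the spread between these libraries, which may be technical.

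The comparison used edgeR 4.0.16 in R 4.3.3: its default filter on low counts (at least 10), TMM scaling, the two-sided quasi-likelihood test with no block on replicate number, and Benjamini-Hochberg adjustment over 14133 genes; called means an adjusted p below 0.05. GENCODE release 44 gave symbols, coordinates and lengths for 57532 identifiers, and RefSeq the promoters. The 9 genes, the lists and their tests were chosen with earlier results of these data known. The genes named are the 9, TRMT6 and TRMT61A, from each list the 6 called genes with the largest absolute log2 fold change and a mean of at least 50 counts, other called genes as needed, and PLG, SERPINB2, PLGRKT, PRSS8, HPN, TMPRSS2, TMPRSS4, F2RL1, MET, MST1R, HGF, PI3, WFDC2, SPINK1 and TFPI2 whatever their values; 1 further gene under this rule is not reported here. ANXA2, the colon epithelium markers and the genes that overlap the 9 were named after their values were seen. Alternatives were RLE factors, library size only, DESeq2 1.42.0, the likelihood ratio test, other count filters, a replicate block, each library left out, and a lowess GC trend (span 0.3) removed. Python 3.11.15 and matplotlib 3.10.9 drew the figures. Mutant cells, ribosome profiling and tRNA sequencing were not analysed here.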

Additional observations from a re-analysis of the deposited data

How the results depend on the processing

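Under the 8 alternatives with all 4 libraries, the 9 genes had a median log2 fold change between -0.77 and -0.64. When libraries were dropped singly, this median lay between -0.81 and -0.55. All 9 log2 fold changes were negative under every alternative. With all 4 libraries kept, only ST14 lost its call, with the GC trend removed. Its log2 fold change without OE-WT replicate 1 was -0.23. The 9 genes were chosen on these same libraries, so their signs and calls under other settings are a description and do not test the result. The count of called genes was 2976, or 1377 with DESeq2's Wald test and 1903 (without CTRL replicate 1) to 2852 with a library left out. Genes past the study's thresholds numbered 445, or 288 with DESeq2, 738 without a count filter beyond 1 count and 216 where every library needed 10 counts (429 to 570 with a library left out). Of the list genes 30 were called (24 lower, 6 higher), 20 with DESeq2 (19 and 1), and 23 to 26 with a library left out. With library size only, the median of all genes moved from 0.01 to -0.08, and the calls split into 2451 lower and 733 higher in place of 1642 and 1334. Deviations of same-numbered libraries correlated at -0.07 across genes. With 2 libraries a group this is a single correlation, so it cannot decide whether libraries were paired. With the replicate block the median of the 9 was -0.68, with 2658 genes called and 28 list genes. The cause of these shifts was not tested. Among the 9, PLAT had the fewest counts, from 38, and the largest standard error, 0.20. DESeq2's standard errors were larger for each of the 9, running from 0.08 for SPINT1 to 0.30 for PLAT.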

Other observations

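Further genes of the surrounding lists were called at low counts. VTN, which encodes vitronectin, an adhesion protein of plasma and matrix, had 1 and 1 counts in OE-WT against 13 and 11 in CTRL (adjusted p = 0.00446 by edgeR's quasi-likelihood test), and the call was lost without either OE-WT library. MRC2, a collagen receptor that associates with the urokinase receptor, had 9 and 3 counts against 29 and 32, or -2.0 ± 0.43 on the log2 scale (± standard error, adjusted p = 0.00197). SERPINB9, an inhibitor of granzyme B, had 21 and 22 counts against 46 and 62, a log2 fold change of -1.0 (adjusted p = 0.0119), and was not called with DESeq2 or without CTRL replicate 2. SERPINI1, neuroserpin, an inhibitor of tissue-type plasminogen activator, had 29 and 47 counts against 20 and 26, a log2 fold change of 1.04 (adjusted p = 0.0161). Its call was lost with DESeq2, without OE-WT replicate 2 and without CTRL replicate 1. S100A10, a subunit of a plasminogen-binding complex with annexin A2, had a log2 fold change of 0.19 (adjusted p = 0.0412), which did not hold under 9 of the alternatives. ANXA2 itself did not pass (-0.14, adjusted p = 0.144).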
